A study of Mus musculus with 9 samples.

Results

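The 34 genes described here encode the signalling chains of the B-cell antigen receptor, its partners at the cell surface, and the enzymes, adaptors and nuclear proteins that carry or use its signal. They were chosen by name, and all 34 were found among the 22342 protein-coding genes of chromosomes 1 to 19 and X in the GENCODE annotation of mm9, Syk under its older symbol Sykb. Peaks were taken when they overlapped a gene body or the 50 kb on either side of it. The 34 windows did not overlap each other and covered 5.38 Mb.

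CTCF and the cohesin subunit Rad21 were mapped by ChIP-seq in C57BL/6 mice, all of them RAG1-deficient, so that their own antigen receptor genes were not rearranged. CTCF was profiled in pre-B cells from bone marrow of RAG-/-µ+ mice, which carry a rearranged IgM transgene, and in RAG1-/- pro-B cells after 7 days of culture with IL7, both from animals 6 to 14 weeks old. Rad21 was profiled in the same pre-B cells, in CD4-CD8- (DN) thymocytes of Rag1-/- mice and in CD4+CD8+ (DP) thymocytes of Rag1-/- mice with a rearranged TCRb transgene, both 4 to 8 weeks old. Each antibody was used once per cell type, giving 1 library each, so no spread between animals is known and no test between cell types was made. The sources used here do not say which promoters drive the 2 transgenes or how many animals went into each library. The lists held 42250 and 71080 CTCF peaks in pre-B and IL7-cultured cells, and 30488, 9701 and 36743 Rad21 peaks in pre-B, DN and DP cells. They ended at different scores, from 50 for CTCF in IL7 culture to 86.45 for Rad21 in DN, and the reads behind them are unknown. A gene without a peak is therefore one where none was called, above all in the short DN list. In a bulk library, fewer bound cells and weaker binding in each cell cannot be told apart.

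The antigen receptor of a B cell is a membrane immunoglobulin joined to CD79A and CD79B, whose cytoplasmic tails pass on the signal. Src-family kinases and SYK phosphorylate these tails and the adaptor BLNK, which brings in phospholipase C gamma 2, and from there calcium, protein kinase C beta and NF-kB follow. The pre-B cell uses the same machinery through the pre-B-cell receptor. CTCF binds an oriented DNA motif, and cohesin, the ring that Rad21 helps to close, is often halted where CTCF is bound, which is how both come to mark the ends of chromatin loops.

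In the whole lists, Rad21 was called at more promoters of these genes in pre-B cells than in thymocytes, and this order did not hold in lists of equal length. A promoter peak, one overlapping 1 kb either side of the start of a protein-coding transcript, was called in pre-B cells at 22 of 34 genes (64.7%, exact Clopper-Pearson 95% interval 46.5 to 80.3), against 18.9% of all genes. In DP thymocytes the count was 14 of 34 (41.2%, 24.6 to 59.3) against 31.5%, and in DN thymocytes it was 2 of 34, against 3.72%. With each Rad21 list cut to its 9701 highest peaks, promoter Rad21 was left at 1 gene in pre-B (4.16% of all genes), 2 in DN (3.72%) and 3 in DP (6.90%). Promoter CTCF was called at 14 of 34 genes in pre-B cells, against 24.6% of all genes, and at 23 of 34 in IL7 culture, against 36.4%. With the longer IL7 list cut to the pre-B length, the IL7 count was 9 (21.5% of all genes) and the pre-B count stayed at 14, so this order turned too. All intervals here cover counting error only. The 34 genes were longer than most, with a median of 33.1 kb against 15.4 kb for all genes, and had a median of 2 annotated starts against 1. The part of gene length and starts in these shares was not tested.

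In the whole lists, the genes with a promoter peak differed between pre-B cells and thymocytes. For 10 of 34 genes (29.4%, 15.1 to 47.5) promoter Rad21 was called in pre-B cells and in neither thymocyte list, against 4.01% of all genes. These were Cd79a, Cd79b, Cd72, Cd40, Tnfrsf13c, Cnr2, Lyn, Bank1, Rasgrp3 and Spib. At 12 genes the promoter had Rad21 in pre-B cells and in a thymocyte list, against 14.9% of all genes. Only Cd81 and Blk had it in thymocytes alone, 2 of 34 genes against 16.7%. In lists of equal length these counts became 0 genes in pre-B cells alone, against 1.01% of all genes, and 3 in thymocytes alone, against 4.77%. With only the DP list limited to the pre-B length, a choice made after seeing the data, they were 10 and 2.

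**Figure D1:**
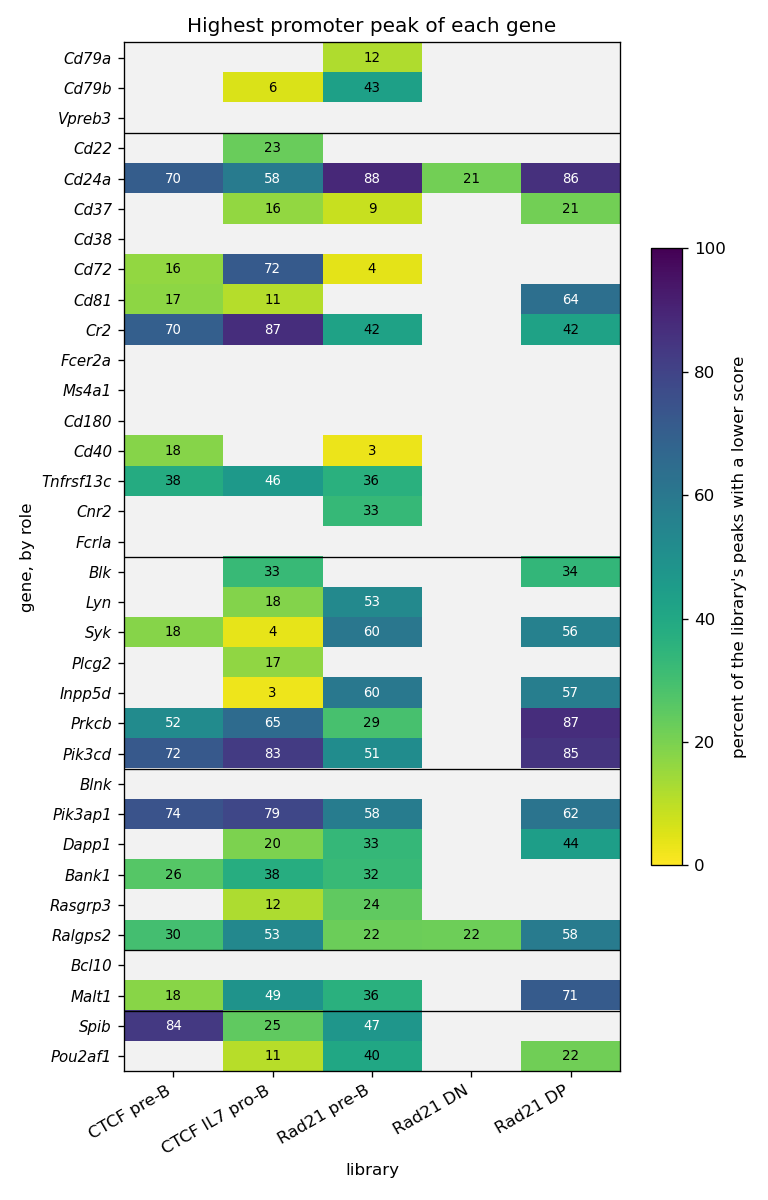
Rows are the 34 genes in the order of their roles, columns are the 5 libraries, and the number and color give the percent of that library's peaks with a lower score than the gene's highest promoter peak; blank cells had none. The DN column has 2 filled cells, Cd24a and Ralgps2, and the 10 genes with a pre-B Rad21 value but none in DN or DP have values between 2.92 and 52.9.

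Those pre-B promoter peaks were not among the strong peaks of the list. Strength is given here by percentile, the percent of a library's peaks with a lower score, since scores grow with depth and cannot be set side by side between libraries. The 27 pre-B Rad21 peaks at the 22 promoters had a median percentile of 33.4, within a range of 2.92 to 88.3. Promoter peaks of all genes had a median of 36.8, and the 162 flanking peaks of the 34 genes had 59.2. The 0 of 34 genes in lists of equal length allows a share of up to 10.3%. The 10 promoters rested on peaks of rank 14357 or lower in the pre-B list.

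Among the receptor genes, the 2 signalling chains shared this pattern. At Cd79a (chr7:25682400-25687216, plus strand) the pre-B Rad21 peak at chr7:25682070-25682694 was centered 18 bp before the start, at percentile 12 and rank 26613. No CTCF peak lay at this promoter or in the gene body in either CTCF list. At Cd79b (chr11:106172655-106176076, minus strand) the pre-B Rad21 peak at chr11:106175331-106176335 reached percentile 43.2, and the CTCF peak beneath it was called in IL7 culture alone, at percentile 5.51. The highest pre-B Rad21 site near each gene was elsewhere and was called in all 3 cell types. For Cd79a this was 6.77 kb upstream, at percentile 98.2 in pre-B, 88.0 in DN and 98.4 in DP. For Cd79b it was 10.8 kb upstream, in an intron of the neighboring sodium channel gene Scn4a, at 96.7, 81.7 and 97.5. Vpreb3, which encodes a relative of the surrogate light chain VpreB, had no peak at its promoter or body in any list, and its highest site lay 8.33 kb downstream at percentile 84.1 in pre-B cells.

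Because the Cd79a promoter had Rad21 without a called CTCF peak, the 300 bases around its start are shown, from 270 before the annotated start to 30 after it, read from mm9 on the strand of the gene. Promoter windows of this length were searched on both strands for the octamer ATGCAAAT, bound by Oct factors with the coactivator that Pou2af1 encodes, for the early B-cell factor core CCCNNGGG and for the PU.1 core GAGGAAGT, and a match would stand in capitals.
Cd79a promoter, chr7:25682130-25682429, plus strand: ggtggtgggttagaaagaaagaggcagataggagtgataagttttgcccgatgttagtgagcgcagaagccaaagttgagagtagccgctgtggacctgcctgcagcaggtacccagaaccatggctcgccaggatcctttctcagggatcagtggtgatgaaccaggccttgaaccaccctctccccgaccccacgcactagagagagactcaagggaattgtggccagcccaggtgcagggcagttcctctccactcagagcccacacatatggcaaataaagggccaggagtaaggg
The octamer was found in 3 of the 34 promoter windows, Cnr2 and Blnk among them, and in 1.81% of the 22342 windows of all genes. The early B-cell factor core, which reads the same on both strands, was in 8 of 34 and in 15.0% of all. The PU.1 core was in 5 of 34 and in 2.77% of all. The Cd79a window held no exact match to any of them. Only exact matches were counted, so sites that differ from these letters at any base were not looked for.

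Of the 14 surface genes, 7 had promoter Rad21 in pre-B cells. Of the 10 pre-B promoters, 4 were here, and they differed in the CTCF beneath them. At Cd72, which encodes an inhibitory coreceptor, the Rad21 peak was weak (percentile 4.01) over a CTCF peak at percentile 16.1 in pre-B cells and 71.6 in IL7 culture. The peak of Cd40, the receptor for T-cell help, was also near the end of the list, at 2.92, with pre-B CTCF at 18.0. Tnfrsf13c, which encodes the BAFF receptor, had Rad21 at 36.4 and CTCF at 38.3 and 45.9 in pre-B and IL7-cultured cells. The cannabinoid receptor gene Cnr2 had Rad21 at 32.9 and no promoter CTCF in either list, and 2 more pre-B Rad21 peaks without CTCF lay 3.16 and 4.78 kb into the gene.

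Promoters shared with DP thymocytes were those of Cd24a, Cd37 and Cr2. Cd24a, which encodes the heat-stable antigen that marks immature lymphocytes of both lineages, had the highest pre-B promoter Rad21 of the 34 genes, at percentile 88.3, with 86.2 in DP, and was 1 of the 2 genes with a DN promoter peak, at 21.1. Cr2, the complement receptor gene of mature B cells, had promoter CTCF at percentile 69.8 in pre-B cells and 86.8 in IL7 culture, while its Rad21 peaks stood at 42.5 in pre-B and 42.2 in DP. Cd37, a tetraspanin gene, had weak promoter Rad21 in both, at 8.53 and 21.4. Cd81, a tetraspanin gene used by many cell types, had promoter CTCF in both B-lineage lists but Rad21 in DP thymocytes alone, at 63.5.

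Some surface genes had little or nothing. Ms4a1, the gene of CD20, had no Rad21 peak in any list over its whole 116 kb window, and its only pre-B CTCF peak lay 27.3 kb upstream at percentile 33.6. Cd180, a relative of the Toll-like receptors, and Fcrla had no peak at the promoter or body in the pre-B lists, although 3 strong Rad21 sites called in all 3 cell types lay upstream of Cd180. Around Fcrla, 4 of 6 Rad21 sites were called in pre-B cells alone, at percentiles of 22.4 to 42.6.

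The kinases and enzymes held the most sites, 100 for 7 genes, among them the longest of the 34 genes. Sites per length of window were not compared between roles. Lyn, the Src-family kinase that both starts and restrains the signal, had 11 Rad21 sites, of which 8 were called in pre-B cells alone. Its promoter peak stood at percentile 52.9 with CTCF called in IL7 culture alone, at 18.4. The pre-B peak 102 kb into the gene, in an intron at chr4:3707270-3708187, had percentile 80.6 and rank 5906, which kept it in the cut list, and neither thymocyte list had a peak there. Another Lyn site, 30.8 kb upstream, was called in all 3 lists but at percentile 96.3 in pre-B, 48.6 in DN and 3.57 in DP. The DN list is the short one, and the ranks were 1130 in pre-B, 4984 in DN and 35428 in DP. Blk, another Src-family kinase gene, showed the opposite at its promoter, with Rad21 at 33.9 in DP and none called in pre-B or DN. Over the body of Blk, 2 sites were called in all 3 cell types, the higher at 98.7, 95.2 and 97.9 in pre-B, DN and DP.

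Syk and Inpp5d had promoter Rad21 of similar percentile in pre-B and DP, at 60.3 and 55.9 for Syk and at 59.9 and 57.2 for Inpp5d. Inpp5d encodes SHIP1, the lipid phosphatase that opposes phosphoinositide 3-kinase, and its body held 10 pre-B Rad21 peaks, the most of any of the 34 genes, spread from 6.35 to 95.3 kb after the start. Of these, 8 were called in pre-B cells alone and the other 2 in pre-B and DP. No CTCF peak in either list lay under 4 of the 10, those 6.35, 20.2, 37.9 and 39.3 kb into the gene. Plcg2 had no promoter Rad21 in any list. A cluster of Rad21 sites lay 16.2 to 32.8 kb upstream of it. Of these, 3 were called in all 3 cell types with pre-B percentiles of 89.0 to 95.5, and beside them a site 20 kb upstream was called in pre-B cells alone at percentile 84.2.

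Prkcb, the gene of protein kinase C beta, went the other way. It was the longest of the 34 genes, at 346 kb, and had the most pre-B CTCF peaks in its body, 12, and the most Rad21 sites, 24. None of the 24 was called in pre-B cells alone and 11 were called in DP alone. Of those 11, 9 lay in introns between 2.27 and 146 kb after the start. Its promoter Rad21 stood at percentile 86.8 in DP and 29.2 in pre-B. Over the gene body, 8 of the Rad21 sites had no CTCF peak in either B-lineage list. The 3 body sites called in all cell types, 156, 171 and 182 kb after the start, had pre-B percentiles of 86.1, 95.6 and 72.8. Pik3cd, the gene of the leukocyte phosphoinositide 3-kinase, had its promoter peak at an internal start 4.11 kb into the gene, at 51.4 in pre-B and 85.1 in DP.

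The adaptor genes had 45 sites for 6 genes. Bank1, a scaffold gene of B cells, had 3 Rad21 sites, all called in pre-B cells alone, at percentiles of 30.4 to 32.5, and no peak in either thymocyte list across its window. Rasgrp3, which encodes an exchange factor for Ras, had 5 of 6 sites called in pre-B cells alone. They included a peak 24.9 kb into the gene at percentile 73.3 and one 101 kb from the start, past the end of the gene, at chr17:75935532-75936605, with percentile 93.2 and rank 2070. That last peak was the highest in the windows among the 105 sites called in pre-B cells alone. Its promoter peak lay at an internal start 29.5 kb into the gene, at 24.4. Pik3ap1, which encodes the adaptor BCAP, had 2 promoter Rad21 peaks, one shared with DP at 44.5 and 61.5 and one called in pre-B cells alone at 58.2. Its body held 6 peaks each of pre-B CTCF and Rad21.

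Blnk, the central adaptor, had no promoter peak of either protein. It had 7 DP-only sites, all 24.6 to 44.7 kb upstream, and the 3 farthest lay in introns of Dntt, which encodes terminal transferase. The highest of them stood at percentile 80.6 in DP. The pre-B list had a strong site between that cluster and the gene, 21.8 kb upstream, at 95.7, which was called in all 3 lists, at 96.0 in DP and 11.3 in DN. Its ranks were 1320 in pre-B, 1464 in DP and 8609 in DN, and all 3 lists of equal length held it too. Dapp1 had promoter Rad21 at 33.4 in pre-B and 43.8 in DP, with CTCF called in IL7 culture alone. Ralgps2 was the other gene with a DN promoter peak, at percentile 22.0, and its promoter had 58.5 in DP and 22.3 in pre-B. These lists differ in length, and the ranks of the peaks were 7569 in DN, 15250 in DP and 23671 in pre-B.

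In the NF-kB arm, Bcl10 had no peak at its promoter or body in any list, whereas Malt1 had promoter Rad21 at percentile 36.5 in pre-B and 71.2 in DP over CTCF at 17.6. Spib and Pou2af1 encode the Ets factor Spi-B and the octamer coactivator OCA-B. Spib had 14 Rad21 sites in its window, 8 of them called in pre-B cells alone, and 2 of these were at its promoter, at 47.3 and 25.4. A broad pre-B CTCF peak at percentile 83.5, centered 1.76 kb before the start in the neighboring gene Pold1, reached into the promoter window. Pou2af1 had promoter Rad21 in pre-B (40.5) and DP (21.7) with no CTCF peak beneath it, and the strongest pre-B Rad21 peak in its window reached only percentile 49.0.

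**Figure D2:**
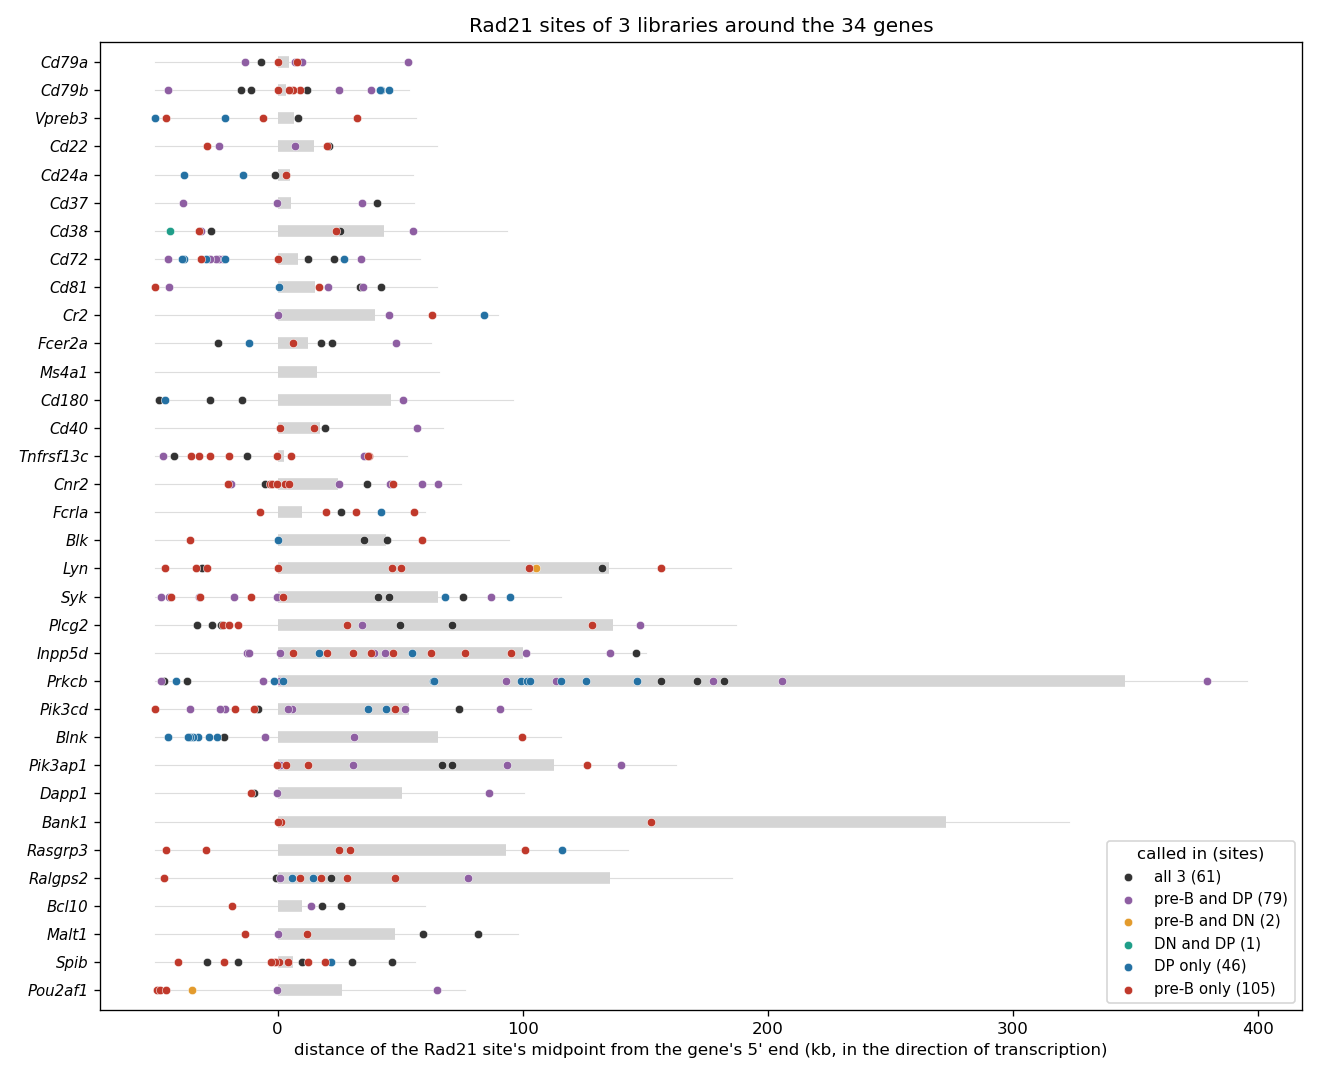
Each row is a gene, drawn in the direction of transcription with its body as a gray bar and its 50 kb flanks as a thin line; points are Rad21 sites, colored by the libraries in which they were called, at their distance in kb from the 5' end. Sites called in pre-B cells alone (105) are spread over most rows; of those called in DP alone (46), 11 lie in the window of Prkcb, 9 of them in its body, and 7 upstream of Blnk.

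Across all windows, peaks of the 3 Rad21 lists merged into 294 sites. Of these, 105 (35.7%, 30.2 to 41.5) were called in pre-B cells alone, against 20.6% of the 46478 sites of the genome. Sites shared by pre-B and DP numbered 79 (26.9%) against 25.1%, and those called in all 3 lists 61 (20.7%) against 18.7%. DP-only sites numbered 46 (15.6%, 11.7 to 20.3) against 33.6%. Gene bodies held 31 pre-B-only sites among 76 (40.8%, 29.6 to 52.7) against 22.5% over the bodies of all genes, and the promoters 13 among 28 (46.4%, 27.5 to 66.1) against 11.8%. In lists of equal length the 34 windows had 105 sites, of which 22 (21%, 13.6 to 30) were called in pre-B cells alone against 14.8%, 8 in pre-B and DP against 6.50%, 43 (41.0%) in all 3 against 33.2%, and 10 (9.52%, 4.66 to 16.8) in DP alone against 15.6%. The intervals for pre-B alone and DP alone include the genome shares, and 16 of the 22 were called in a thymocyte list before it was cut.

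The other 6 were called in pre-B cells alone in the whole lists too. These were the Lyn intronic site, the 2 of Rasgrp3 at 24.9 and 101 kb, the Plcg2 site 20 kb upstream, one 32.0 kb upstream of Cd38, in an intron of Bst1 at percentile 71.8, and one 35.3 kb upstream of Tnfrsf13c, in a coding exon of 1500009C09Rik at 78.6. Cd38 and Bst1 encode related ADP-ribosyl cyclases. All 6 overlapped CTCF peaks in both B-lineage lists. None lay at a promoter.

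**Figure D3:**
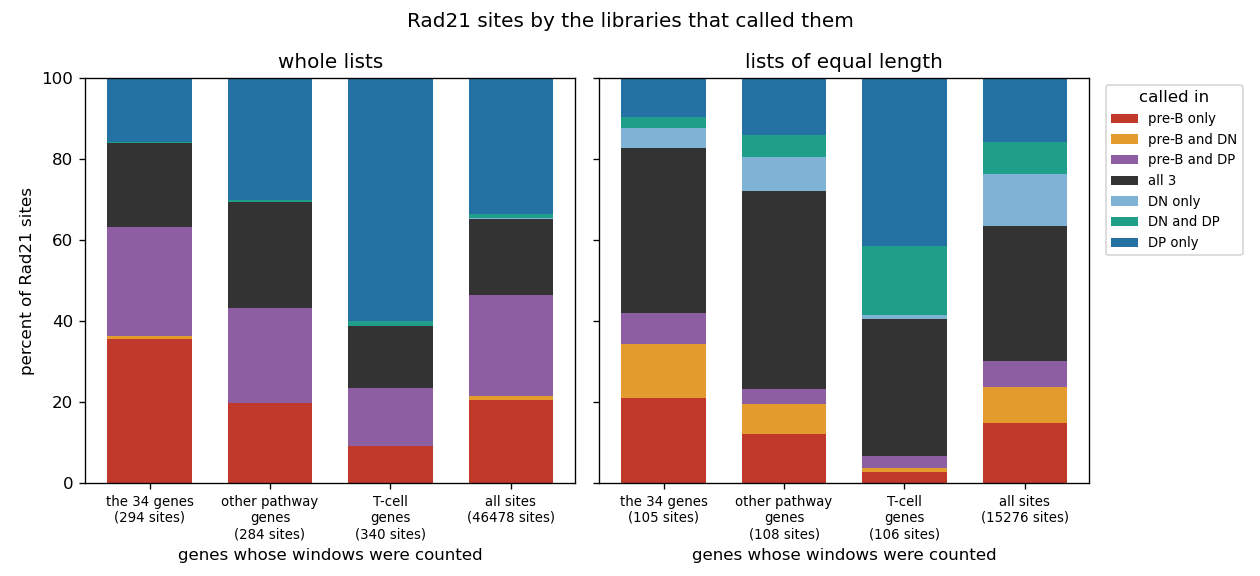
Bars give the percent of merged Rad21 sites by the libraries that called them, for the windows of the 34 genes, of 30 other genes of the receptor pathway, of 29 T-cell genes and for all sites, with whole lists on the left and the 9701 highest peaks of each list on the right. The pre-B-only part is 35.7% of sites for the 34 genes and 9.12% for the T-cell genes, and with equal lists 21% and 2.83%.

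Other genes set these counts in context. A list of 30 more genes of the same pathway had promoter Rad21 in 11 of 30 in pre-B, against 18.9% of all genes. In DP it was 18 of 30, against 31.5%. Promoter Rad21 was called at 4 in pre-B and neither thymocyte list, against 4.01%, and at 11 in thymocytes alone, against 16.7%. Of the 284 sites of this list, 56 (19.7%) were called in pre-B alone, against 20.6% of all sites. Those in DP alone numbered 85 (29.9%), against 33.6%. T-cell receptor and T-cell surface genes had promoter Rad21 in 2 of 29 in pre-B and 26 of 29 in DP, and 31 of 340 sites (9.12%) were called in pre-B alone while 204 (60.0%) were called in DP alone. The peak lists hold no RNA levels, so marker expression was not analysed here, and this contrast is the one set beside the labelled cell types.

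Sites called in all 3 lists were the highest in the windows of most of these genes. For 28 of the 33 genes with a pre-B Rad21 site (84.8%, 68.1 to 94.9), the highest one was called in all 3 lists, against 58.7% of all genes with such a site. For 23 of these 28 it lay in the flanks (82.1%), against 80.3% for all genes. The exceptions were Cr2 and Ralgps2, whose highest sites were shared with DP, Pou2af1, shared with DN, and Bank1 and Rasgrp3, called in pre-B cells alone. Sites called in all 3 lists had a median percentile of 89.9 in pre-B cells, those shared with DP 56.4, and those called in pre-B cells alone 30.1. Over the genome the medians were 82.2, 48.1 and 26.6. At least 1 Rad21 peak lay in the windows of 33 genes in pre-B (80.0% of all genes), 30 in DN (56.9%) and 32 in DP (78.2%). The genes without were Ms4a1 in every list, Bank1 in both thymocyte lists, and Cr2 and Rasgrp3 in DN. All 34 windows had CTCF in pre-B (84.7% of all genes) and in IL7 culture (91.0%). Gene bodies outside promoters had Rad21 at 20 of 34 genes in pre-B against 30.9%, 8 in DN against 13.9% and 13 in DP against 29.7%, and CTCF at 22 in pre-B against 38.3% and 23 in IL7 culture against 48.0%. In lists of equal length, gene-body Rad21 was at 12 genes in pre-B against 14.5%, 8 in DN against 13.9% and 5 in DP against 12.6%.

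At the 140 sites called in both pre-B and DP, the percentile was higher in pre-B at 76 (54.3%, 45.7 to 62.7), against 46.1% of such sites in the genome. At 11 sites (7.86%) it was higher by 50 points or more, against 2.98%, and at 4 (2.86%) it was lower by as much, against 4.66%. The DP list is the longer one, so percentiles in it depend on its length too. With DP limited to the pre-B length, an alternative added after seeing the data, 128 sites were left, and the percentile was higher in pre-B at 77 (60.2%, 51.1 to 68.7) against 53.3%, by 50 points or more at 13 (10.2%) against 4.29%, and lower by as much at 3 (2.34%) against 3.70%. The Lyn site 30.8 kb upstream had the widest gap, 92.7 points. A site 77.8 kb into Ralgps2 stood at 84.9 in pre-B and 3.01 in DP. A site 44.7 kb upstream of Cd79b stood at 79.5 and 10.2, and sites downstream of Cd37 and Fcrla, 40.6 and 26.0 kb from their starts, at 97.1 and 31.8 and at 97.7 and 32.9. The 4 in the other direction were 2 at Prkcb, 1 upstream of Blnk and 1 downstream of Bcl10, the last at 14.2 in pre-B and 83.7 in DP. At the 61 sites called in all 3 lists the pre-B percentile was above that in DN at 53 (86.9%), against 82.3% in the genome. A given rank has a higher percentile in a list of 30488 peaks than in one of 9701, so this share depends on list length and says nothing of binding strength.

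**Figure D4:**
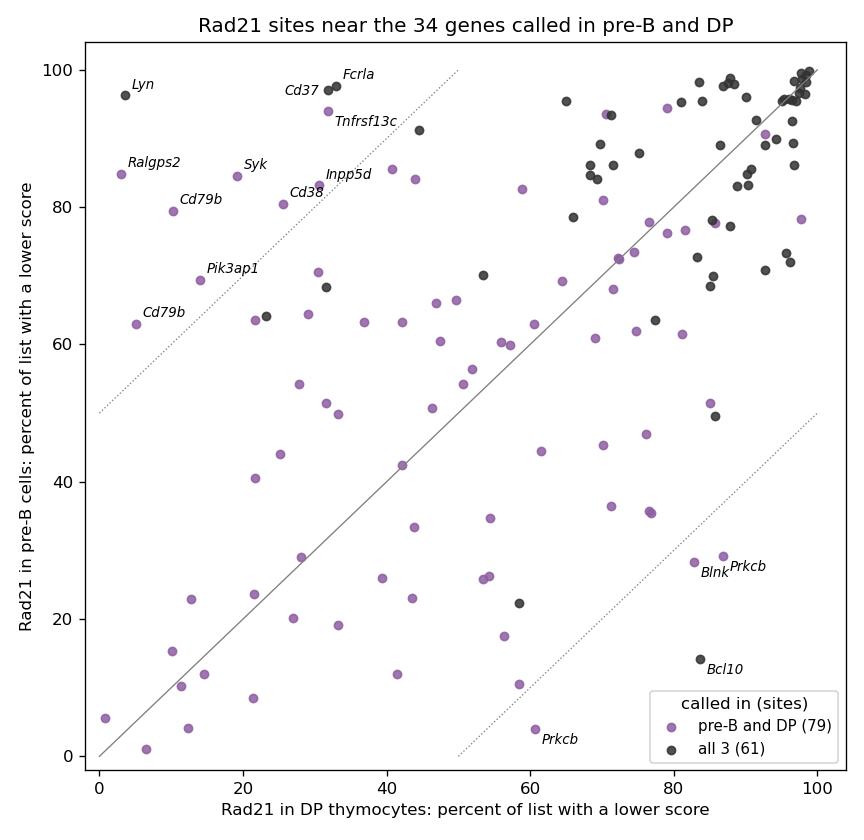
Each point is a Rad21 site near the 34 genes called in pre-B cells and DP thymocytes, placed by the percent of each library's peaks with a lower score; the solid line marks equal percentiles and the dotted lines a gap of 50 points. Named points lie beyond the dotted lines, 11 above (Lyn the farthest, at 96.3 and 3.57) and 4 below.

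Rad21 in pre-B cells sat mostly on CTCF, less so at promoters. Of the 272 pre-B CTCF peaks near the genes, 199 (73.2%, 67.5 to 78.3) coincided with pre-B Rad21, against 63.5% over the genome. In reverse, 203 of 250 pre-B Rad21 peaks (81.2%, 75.8 to 85.8) overlapped a pre-B CTCF peak, against 88.1%. With the lists cut, the first share was 32.4% (26.8 to 38.3) against 23.2% and the second 100% against 99.8%. In the whole lists, pre-B Rad21 peaks with pre-B CTCF were 142 of 162 in the flanks (87.7%) and 47 of 61 in gene bodies (77.0%). At promoters they were 14 of 27 (51.9%), where promoter peaks of all genes had 74.6%. Shares over the flanks and bodies of all genes were not counted. Of the promoter peaks, 4 had CTCF in neither list, at Cd79a, Cnr2, Ralgps2 and Pou2af1. Counted by gene, 2 of the 22 genes with pre-B promoter Rad21, Cd79a and Cnr2, had no promoter CTCF in either list, against 13.3% of such genes in the genome. By pattern, all 61 sites called in the 3 cell types overlapped pre-B CTCF (genome 99.5%), as did 69 of 79 shared with DP (87.3%, genome 88.0%). The counts were 69 of 105 for sites called in pre-B alone (65.7%, 55.8 to 74.7, genome 78.3%) and 15 of 46 for those called in DP alone (32.6%, 19.5 to 48.0, genome 18.4%). CTCF in thymocytes was not analysed here.

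The CTCF list of IL7-cultured pro-B cells was compared with that of pre-B cells, which differ in stage as well as in culture, so the effects of both cannot be told apart. The IL7 list held 254 of the 272 pre-B CTCF peaks (93.4%, 89.7 to 96.0), against 96.0% in the genome. In the other direction 272 of 386 IL7 peaks (70.5%, 65.6 to 75.0) were called in pre-B cells, against 58.6%. Those also called in pre-B cells had a median percentile of 70.4, and the other 114 had 18.3, where the medians over the whole list were 70.5 and 23.8. With lists of equal length the shares were 78.3% against 84.8% in the genome and 92.9% against 85.5%. At promoters, 10 of 34 genes (29.4%, 15.1 to 47.5), against 13.6% of all genes, had CTCF in IL7 culture and none in pre-B cells: Cd79b, Cd22, Cd37, Blk, Lyn, Plcg2, Inpp5d, Dapp1, Rasgrp3 and Pou2af1, with percentiles of 2.53 to 32.6. Of these 10, 7 had pre-B promoter Rad21, against 14.1% of all such genes. Among all 34 genes it was called at 22 (64.7%), a share close to that of the 10. The IL7 list is the longer of the 2 and ends at the lower score, and cut to the pre-B length it held promoter CTCF at 9 of 34 genes, against 21.5% of all genes.

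The CTCF consensus, the 12-base motif that the study derived with HOMER, was found with at most 2 mismatches in 121 of the 272 pre-B CTCF peaks (44.5%, 38.5 to 50.6), against 48.3% of all pre-B peaks and 8.96% of sequences 2000 bp beside them. The study searched a larger set of CTCF motifs, so a peak without this consensus may hold another of them. This consensus was found in 6 of 15 promoter peaks, 31 of 66 body peaks and 84 of 191 flanking peaks. Matches from pre-B-only sites and promoters described above, and 2 that share the Lyn letters, are printed from mm9, each on the strand of its match with 14 bases on either side and the 12 matched bases in capitals.
Lyn, intron, 102 kb, chr4:3707724-3707735, plus strand: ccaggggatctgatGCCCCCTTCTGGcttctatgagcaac
Plcg2, 33.2 kb upstream, chr8:119988634-119988645, plus strand: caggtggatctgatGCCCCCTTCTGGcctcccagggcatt
Prkcb, intron, 32.7 kb, chr7:129464861-129464872, minus strand: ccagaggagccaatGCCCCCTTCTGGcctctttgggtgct
Tnfrsf13c, 35.3 kb upstream, chr15:82090139-82090150, plus strand: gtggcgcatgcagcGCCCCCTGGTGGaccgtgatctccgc
Tnfrsf13c, promoter, chr15:82055035-82055046, plus strand: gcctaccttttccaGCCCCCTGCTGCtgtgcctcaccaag
Rasgrp3, downstream, 101 kb, chr17:75935813-75935824, minus strand: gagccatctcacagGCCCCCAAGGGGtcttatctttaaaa
Prkcb, promoter, chr7:129433789-129433800, plus strand: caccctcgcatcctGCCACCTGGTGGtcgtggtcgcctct
Pik3ap1, promoter, chr19:41459029-41459040, plus strand: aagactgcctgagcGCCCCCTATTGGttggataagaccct
The Tnfrsf13c upstream match had no mismatch, and its CTCF peak stood at percentile 99.6. The Lyn match differed from the consensus at 2 positions, and its CTCF peak stood at 75.3. The same 12 bases were in the Plcg2 and Prkcb peaks shown, and in 481 of the 20421 matched peaks of the genome (2.36%). The run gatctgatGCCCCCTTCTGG, shared by Lyn and Plcg2, was in 37. The pre-B-only sites upstream of Plcg2 and Cd38 had CTCF peaks without a match at 2 mismatches, and the Rasgrp3 peak at 24.9 kb matched equally well on both strands.

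The orientation of flanking matches was counted next. Plus-strand matches were read as facing lower coordinates. CTCF peaks without a stranded match were passed over, also where they lay nearer to the gene. For 17 of the 34 genes a CTCF peak with a stranded match lay within 50 kb on each side, and the nearest pair pointed toward each other across the gene at 5 (29.4%; Cd79a, Vpreb3, Cd72, Cd180 and Prkcb), the same way at 9 (52.9%) and away from each other at 3 (17.6%). Over the 6921 genes with such a pair the shares were 24.8%, 49.6% and 25.6%. At Cd79a the pair stood 6742 bp before the gene, within the strong Rad21 site called in all 3 cell types, and 48260 bp after it.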

How the data were processed

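CTCF and Rad21 peaks came from 5 ChIP-seq libraries, each from 1 antibody in 1 cell type. Per the labels and the methods of the study, the authors discarded duplicate reads and adapters, used Bowtie for alignment to mm9, kept reads with up to 3 mapping places and called peaks per library with MACS 1.4.2, and the pre-B libraries shared 1 input. The labels name Bowtie 0.12.9, whereas the methods of the study name another version. Each deposited peak carries a MACS score, used here for rank within its list and, in 1 alternative setting, for a limit of 100 in every list. Read depth is not known.

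Genes were taken from GENCODE for mm9, the build of the peaks. Members were matched by symbol, and the named genes were those with a promoter peak, the most gene-body peaks, a pre-B-only site that stayed at equal length, a thymocyte site absent from pre-B, a list without peaks, or pre-B Rad21 without CTCF. The members and lists were chosen with earlier results of these data known. Peaks were assigned to promoters, gene bodies or flanks by an overlap of 1 bp, and Rad21 peaks of the 3 libraries were merged where they overlapped. Rad21 lists were also cut to 9701 peaks and CTCF lists to 42250. Of 30 T-cell genes, 29 were found. Intervals are exact Clopper-Pearson at 95%. The code used Python 3.11.15, numpy 2.4.6, scipy 1.17.1, pandas 2.3.3 and matplotlib 3.10.9, and was tested on simulated data.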

Additional observations from a re-analysis of the deposited data

How the results depend on the processing

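Of 150 values recomputed under other settings, 123 stayed within the tolerance and 27 moved past it. The tolerance was a factor of 1.5 for counts and the 95% interval for shares. With lists of equal length, promoter peaks were left at 9 genes for CTCF in IL7 culture, 1 for Rad21 in pre-B and 3 in DP, and gene-body Rad21 at 12 in pre-B and 5 in DP. Promoter Rad21 was then called in pre-B alone at 0 genes and in pre-B and thymocytes at 1. Peaks near the genes fell to 241 for CTCF in IL7 culture, 87 for Rad21 in pre-B and 64 in DP, and sites to 22 in pre-B alone, 8 in pre-B and DP and 10 in DP alone. The shares became 32.4% of pre-B CTCF peaks with Rad21, 100% of pre-B Rad21 peaks with CTCF, 78.3% of pre-B CTCF peaks called in IL7 culture and 92.9% of IL7 peaks called in pre-B. These lists hold fewer peaks by construction. With scores of at least 100, promoter CTCF in IL7 culture was at 12 genes, sites of pre-B and DP numbered 49 and the consensus was in 51.4% of peaks. With flanks of 20 kb there were 161 and 229 CTCF peaks in pre-B and IL7 culture, 160 and 112 Rad21 peaks in pre-B and DP, 43 sites of pre-B and DP and 23 of DP alone. With at most 1 mismatch the consensus was in 19.5% of peaks. Starts of all transcripts and a DP list of the pre-B length, both chosen after seeing the data, moved no value past the tolerance. Within it, scores of at least 100 left pre-B promoter Rad21 at 16 genes, 7 of them in pre-B alone, and 76 pre-B-only sites, and flanks of 20 kb left 72 such sites. No paired analysis was possible because each condition had 1 library and no test was made. Depth is unknown, so a site missing from a list, above all that of DN, may lie below its score limit.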
